A study of Mus musculus with 12 samples.

Results

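The response of mouse macrophages to myeloma cells was compared between Cd36 genotypes over all 22180 genes measured on 12 of the 12 arrays of the series, in 4 groups of 3 arrays. WT macrophages were primary mouse macrophages with intact Cd36, cultured alone. WT TAMs, or tumour-associated macrophages, were WT cells kept for 72 h with 5TGM1, a mouse multiple myeloma line. KO macrophages and KO TAMs were the matching cells knocked out for Cd36. The quantity studied was the interaction, the co-culture difference in KO cells (KO TAM minus KO macrophage) minus that in WT cells (WT TAM minus WT macrophage), on the log2 scale of the deposited intensities. A value above 0 means that a gene rose more, or fell less, with co-culture in KO than in WT cells. A value of 1 is a doubling of one fold change over the other. The sources used here do not give the knockout allele, the cell types it affects, the strain, age and sex of the mice, the tissue of origin of the macrophages, or how myeloma cells were kept out of the RNA. A culture time is recorded only for the TAMs. Nothing in the labels ties replicates to separate animals or cultures, so p-values measure the spread between these arrays, which may be technical.

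CD36 is a scavenger receptor and fatty acid translocase on macrophages, which brings in long-chain fatty acids and oxidised lipoproteins. Macrophages next to tumour cells commonly change their lipid handling, antigen presentation, interferon-stimulated genes and surface receptors. A change that needs CD36, or that is already present in cells without it, would appear as a different co-culture difference in the 2 genotypes.

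Cd36 itself was lower on every KO array, at 9.53% of the WT intensity in macrophages and 9.44% in TAMs (two-sided exact permutation p = 0.1 in each culture, the smallest that 3 against 3 arrays can give). Its interaction was -0.01 ± 0.34 (estimate ± standard error here and below). The macrophage marker Adgre1 lay between 12.16 and 12.83 and Cd68 between 12.05 and 13.07 on the 12 arrays, beside a median of 5.34 over all genes. The plasma cell markers Jchain, between 3.28 and 3.84, and Tnfrsf17, between 3.35 and 4.09, were low on all arrays. Pou2af1 lay between 4.17 and 4.66 and Mzb1 between 5.06 and 5.49. The mean over 17 myeloma, plasma and B cell markers lay between 5.46 and 5.73, above the median over all genes. The list as a whole was therefore not shown to be low. A mean of markers and a median over genes are unlike measures, and whether myeloma RNA was present was not tested. Xist was between 11.08 and 11.32 on WT arrays and between 3.91 and 4.35 on KO arrays, and the Y-linked Uty was between 3.27 and 3.91 on WT and between 9.71 and 9.99 on KO arrays. Genotype and the sex of the cells therefore cannot be told apart. Among the genes called below, 1 of 43 was X-linked, beside 4.05% of all genes, and 0 were Y-linked. Whether the sex of the cells contributed to the calls was not tested. A pair of arrays stood apart from their group: 414 genes on WT TAM 2 and 550 on KO TAM 1 lay more than 1 log2 unit from both other arrays of the group, against 4 to 12 genes on the macrophage arrays.

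Most of the co-culture response was not called different between the genotypes. The interaction passed a Benjamini-Hochberg adjusted p of 0.05 in limma's test for 43 genes, 0.194% of those tested, with 23 above 0 (0.104%) and 20 below 0 (0.0902%). At an unadjusted p under 0.05 there were 2130 genes (9.6%). By comparison, co-culture changed 2561 genes in WT cells (11.5%) and 1449 in KO cells (6.53%). Across genes, the co-culture differences of WT and KO cells correlated with a Pearson r of 0.68 and a Spearman rho of 0.47, and 63.3% of genes had a difference of 1 sign in both. The Pearson r was 0.46 without the pair of arrays that stood apart. These are descriptions across genes, which are not independent replicates. The median interaction over all genes was -0.02, with the 5th percentile at -0.43 and the 95th at 0.40. The smallest called interaction was 0.69 in size, beside a median standard error of 0.17.

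**Figure D1:**
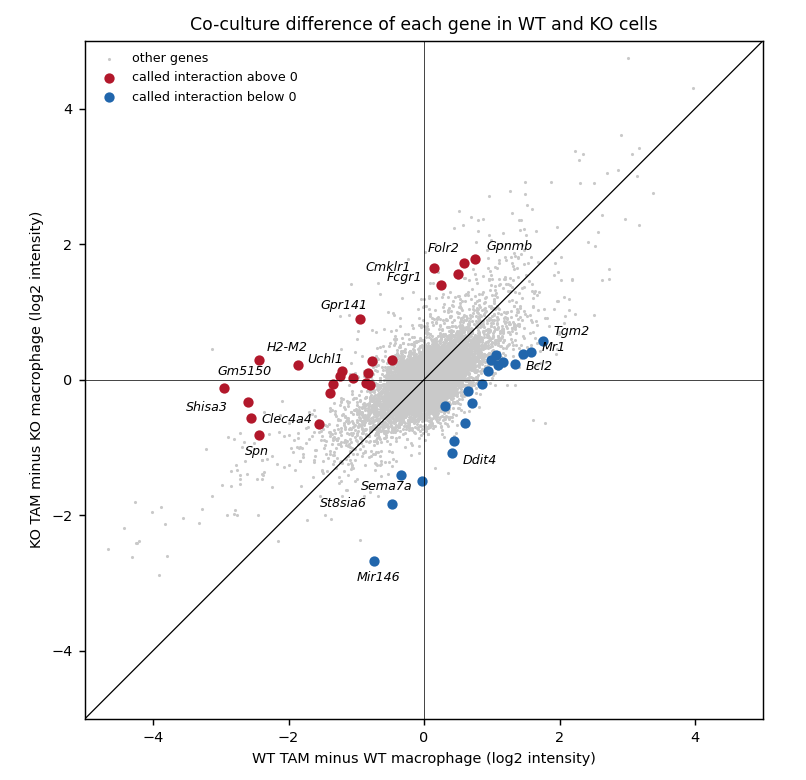
Each point is a gene, placed by its co-culture difference (log2 intensity) in WT cells on the x axis and in KO cells on the y axis, with the diagonal marking equal differences. The 23 genes called above 0 (red) lie above the diagonal, mostly at the left where WT cells fell and KO cells stayed near 0, and the 20 called below 0 (blue) lie below it.

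In most called genes, one genotype changed and the other was not called. The co-culture difference was called in WT alone for 22 of the 43 genes, 15 with an interaction above 0 and 7 below. It was called in KO alone for 6 genes, in both genotypes but larger in WT for 6, in both but larger in KO for 5, and in opposite directions for 4. The gap between the genotypes was narrower in TAMs than in macrophages for 32 of the 43 genes (74.4%), against 49.6% of all genes. Of the 43 genes, KO macrophage arrays lay wholly below WT macrophage arrays for 21 and wholly above for 19, and overlapped for 3. Over all genes, KO macrophage arrays lay wholly below for 17.7% and wholly above for 20.8%. TAM arrays of KO lay wholly below WT for 12 genes and wholly above for 12, and overlapped for 19, where over all genes 11.8% lay wholly below and 12.8% wholly above. For 23 of the 37 called genes that also changed in WT cells (62.2%) the KO macrophage mean was nearer to the WT TAM mean than to the WT macrophage mean, against 551 of all 2561 genes that changed in WT cells (21.5%). Because the interaction contains all 4 group means, a large gap between macrophages raises the chance of a call, so these shares describe the called genes and do not test them.

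**Figure D2:**
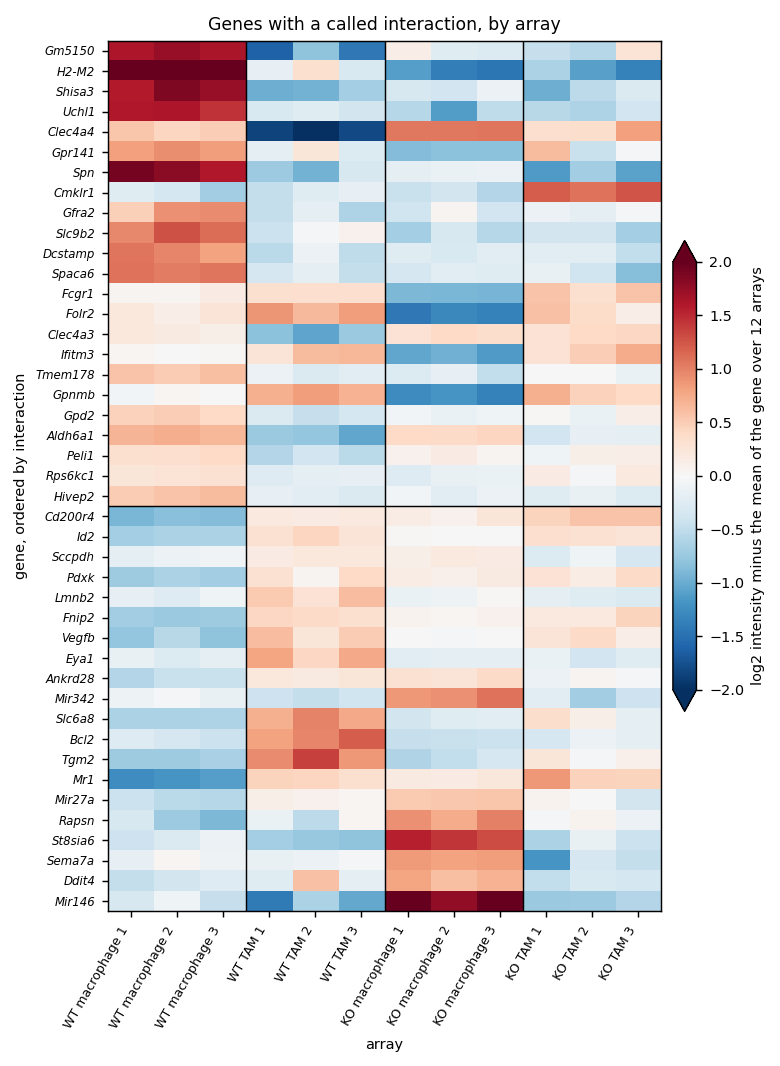
Rows are the 43 called genes from the highest interaction (top) to the lowest, columns are the 12 arrays, and the colour is the log2 intensity minus the mean of the gene over all arrays. In the upper block many genes are high on the 3 WT macrophage arrays alone. In the lower block many genes are low on WT macrophage arrays or high on KO macrophage arrays, and others, such as Bcl2 and Eya1, are high on WT TAM arrays alone.

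H2-M2, Shisa3 and Uchl1 were high in WT macrophages and fell with co-culture, while every KO array of either culture lay below the WT macrophage arrays. H2-M2, a nonclassical MHC class I gene, stood at 8.69, 8.67 and 9.23 on the WT macrophage arrays and at 6.32, 6.80 and 6.18 on the WT TAM arrays. In KO cells it was at 5.39, 5.10 and 5.04 in macrophages and at 5.85, 5.40 and 5.13 in TAMs. The WT groups did not overlap, the KO groups did, and co-culture differences of -2.43 in WT and 0.28 in KO cells gave an interaction of 2.72 ± 0.30 (limma adjusted p = 0.00559). Shisa3, whose protein holds back Wnt and FGF receptors in the endoplasmic reticulum, was at 7.12, 7.40 and 7.27 in WT macrophages and 4.55, 4.57 and 4.85 in WT TAMs, against 5.21, 5.14 and 5.42 in KO macrophages and 4.55, 5.00 and 5.23 in KO TAMs. Its interaction was 2.28 ± 0.23 (limma adjusted p = 0.00366), from differences of -2.6 in WT and -0.33 in KO cells. Uchl1, a ubiquitin hydrolase best known from neurons, was at 7.62, 7.63 and 7.46 in WT macrophages and between 4.91 and 5.77 on the other 9 arrays, with an interaction of 2.08 ± 0.20 (limma adjusted p = 0.00366). A second probe set for Uchl1, at a mean level of 5.44 beside 6.02, gave -0.10, so the interaction rests on 1 probe set. With the mean of the probe sets the limma adjusted p of Uchl1 was 0.0294. On KO arrays H2-M2, Shisa3 and Uchl1 lay between 4.55 and 5.85, near the median over all genes, 5.34. A further fall there may not be detectable.

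Spn, the leukosialin CD43 that marks nonclassical monocytes, fell in both genotypes, by 2.44 in WT and by 0.82 in KO cells. Its levels were 9.08, 8.97 and 8.77 in WT macrophages, 6.44, 6.23 and 6.85 in WT TAMs, 6.98, 7.03 and 7.05 in KO macrophages and 6.03, 6.47 and 6.09 in KO TAMs, so that the genotypes were apart in macrophages and overlapped in TAMs. The interaction of Spn was 1.61 ± 0.22 (limma adjusted p = 0.0122). It was not called without WT macrophage 1 or 2 or without KO macrophage 1 or 3, where the adjusted p reached 0.0558. Gm5150, a predicted gene near Sirpb1c on chromosome 3 that falls outside the rule for named genes and was chosen after its values were seen, had the largest interaction of all, 2.83 ± 0.33 (limma adjusted p = 0.00673). It was at 10.34, 10.48 and 10.36 in WT macrophages and 7.12, 7.92 and 7.31 in WT TAMs, and stayed between 8.16 and 9.0 on the 6 KO arrays.

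Dcstamp and 6 other called genes also fell with co-culture in WT cells, with KO macrophages wholly below WT macrophages and no called difference in KO cells. Dcstamp, which is needed for the fusion of macrophages into osteoclasts and giant cells, was at 6.09, 5.99 and 5.82 in WT macrophages, 4.47, 4.89 and 4.5 in WT TAMs, 4.78, 4.71 and 4.81 in KO macrophages and 4.80, 4.80 and 4.53 in KO TAMs. It fell by 1.34 in WT cells and differed by -0.06 in KO cells (interaction 1.28 ± 0.18, limma adjusted p = 0.0122). Slc9b2, a sodium and proton exchanger of osteoclasts, had an interaction of 1.29 ± 0.21, and Tmem178, a membrane protein that limits osteoclast formation, had 1.05 ± 0.14. Tmem178 was between 5.02 and 5.12 in WT macrophages and between 4.02 and 4.53 on all other arrays. These levels lay below the median over all genes, 5.34, so differences among the lower ones may be background. In KO cells Dcstamp (4.53 to 4.81) and Slc9b2 (4.71 to 5.07) also lay below this median, so a fall there may not be detectable. Gfra2, a receptor for the growth factor neurturin, had an interaction of 1.34 ± 0.22, and Spaca6, a sperm fusion protein, had 1.20 ± 0.21. Hivep2, a zinc finger transcription factor, had 0.71 ± 0.11, and Gpd2, the mitochondrial glycerol 3-phosphate dehydrogenase, had 0.92 ± 0.12. Of these, Tmem178 kept its call when any 1 of the 12 arrays was left out. Gpd2 kept it in 10 of the 12 fits and Dcstamp in 8, while Gfra2 and Slc9b2 kept it in 4, Spaca6 in 3 and Hivep2 in 2. Their largest adjusted p without 1 array was 0.147 for Gfra2, 0.135 for Slc9b2, 0.17 for Spaca6, 0.135 for Hivep2, 0.0557 for Gpd2 and 0.0558 for Dcstamp.

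A pair of neighbouring C-type lectin receptors fell with co-culture in WT cells and were not called in KO cells, where the macrophage arrays started above those of WT. Clec4a4, an inhibitory lectin of the DCIR family, was at 7.69, 7.56 and 7.63 in WT macrophages and at 5.28, 4.62 and 5.33 in WT TAMs. In KO cells it was at 8.19, 8.19 and 8.21 in macrophages and at 7.46, 7.49 and 7.95 in TAMs, a difference of -0.56 that was not called (limma adjusted p = 0.0845), although the KO TAM arrays lay below the KO macrophage arrays. The interaction was 1.99 ± 0.25 (limma adjusted p = 0.0086), and all KO TAM arrays lay above all WT TAM arrays. Clec4a3, which lies beside Clec4a4 on chromosome 6, was at 11.86, 11.82 and 11.77 in WT macrophages, 10.82, 10.59 and 10.91 in WT TAMs, and between 11.94 and 12.06 on the 6 KO arrays. Its interaction was 1.07 ± 0.13 (limma adjusted p = 0.00777), from differences of -1.05 in WT and 0.02 in KO cells. Both calls held when any 1 array was left out. The Clec4a genes are close paralogs, and how far their probes share targets was not tested.

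Peli1 and Aldh6a1 also separated the genotypes after co-culture. Peli1, a ubiquitin ligase of Toll-like receptor signalling, fell by 0.85 in WT cells and differed by -0.05 in KO cells. Aldh6a1, a mitochondrial enzyme of valine breakdown, fell in both, by 1.54 in WT and by 0.65 in KO cells. The interactions were 0.80 ± 0.13 and 0.90 ± 0.14 (limma adjusted p = 0.0316 and 0.026), and for both genes all KO TAM arrays lay above all WT TAM arrays. Peli1 was called in 2 and Aldh6a1 in 4 of the 12 fits that left out 1 array, with adjusted p up to 0.131 and 0.0974. A second Aldh6a1 probe set, at a mean level of 3.40 beside 9.16, gave -0.11, and with the mean of a gene's probe sets the adjusted p of Aldh6a1 was 0.538. Rps6kc1, a protein of the S6 kinase family, had 0.77 ± 0.12, fell by 0.48 in WT cells and was called in 3 of those fits, with adjusted p up to 0.122.

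**Figure D3:**
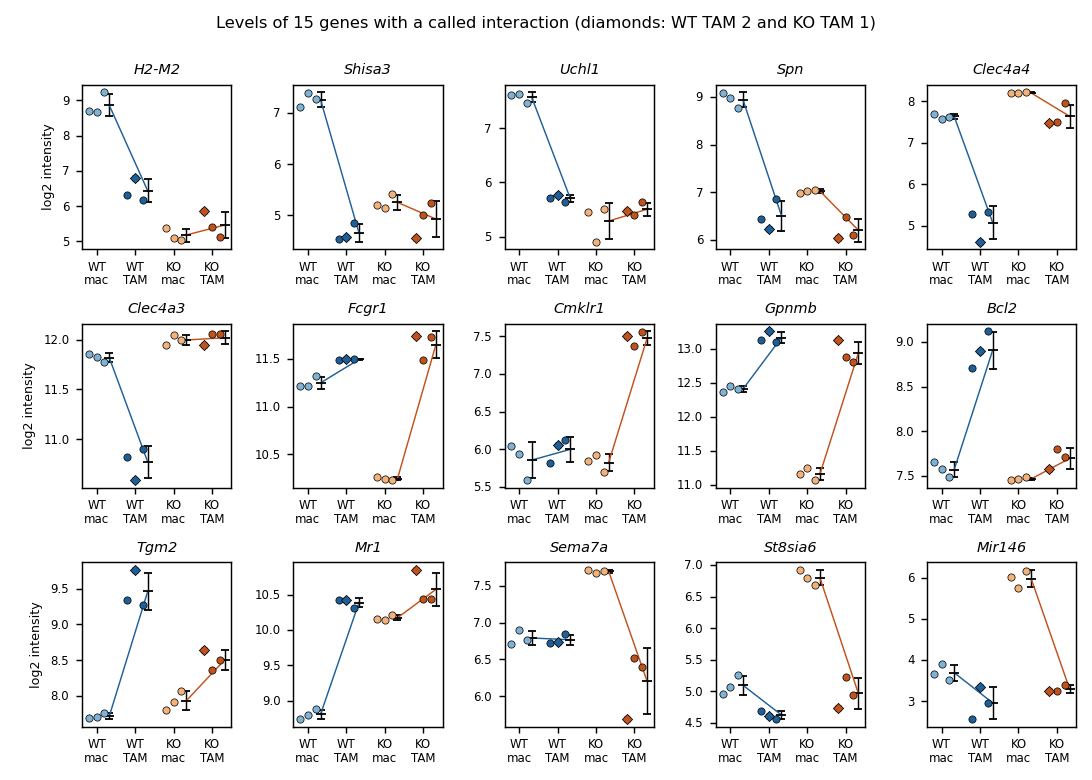
Log2 intensity of 15 called genes on each array, by group (mac stands for macrophage), with diamonds for WT TAM 2 and KO TAM 1, bars for the mean and SD of 3 arrays and lines joining the means of 1 genotype. The WT line is steep and the KO line nearly flat for H2-M2, Shisa3, Uchl1, Clec4a3 and Bcl2, while the KO line is the steeper one for Fcgr1, Cmklr1, Gpnmb, Sema7a, St8sia6 and Mir146.

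A second set of genes rose further in KO cells, mostly from a lower start. Fcgr1, the high-affinity IgG receptor CD64, was at 11.22, 11.21 and 11.32 in WT macrophages and 11.48, 11.50 and 11.50 in WT TAMs, a difference of 0.25 that was not called (limma adjusted p = 0.087). In KO cells it went from 10.26, 10.24 and 10.23 to 11.73, 11.48 and 11.73, a rise of 1.40. The interaction was 1.16 ± 0.12 (limma adjusted p = 0.00366), and the genotypes were apart in macrophages and overlapped in TAMs. Folr2, a folate receptor of tissue macrophages, rose from 11.29, 11.21 and 11.33 to 11.96, 11.72 and 11.92 in WT cells and from 9.65, 9.78 and 9.73 to 11.66, 11.45 and 11.20 in KO cells, with an interaction of 1.13 ± 0.16 (limma adjusted p = 0.0171). Gpnmb, a glycoprotein induced in lipid-laden and tumour-associated macrophages, rose from 12.37, 12.45 and 12.41 to 13.13, 13.26 and 13.11 in WT cells and from 11.16, 11.24 and 11.07 to 13.13, 12.88 and 12.81 in KO cells. Its interaction was 1.03 ± 0.14 (limma adjusted p = 0.0111). For all 3 genes KO macrophages lay below WT macrophages on every array. Fcgr1 kept its call without any 1 array. Gpnmb lost it without WT macrophage 2 or KO macrophage 3 (adjusted p up to 0.0552), and Folr2 lost it without any of the WT macrophage arrays or without KO macrophage 1 or 3 (up to 0.0843).

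Ifitm3, an interferon-induced protein that blocks the entry of viruses, rose from 11.79, 11.74 and 11.78 to 12.01, 12.38 and 12.41 in WT cells and from 10.72, 10.79 and 10.61 to 12.05, 12.24 and 12.49 in KO cells. Its TAM values overlapped between genotypes, and the interaction was 1.05 ± 0.18 (limma adjusted p = 0.0473), called in 2 of the 12 fits that left out 1 array (adjusted p up to 0.17). Cmklr1, the receptor for the chemoattractant chemerin, had no such lower start. It was at 6.05, 5.93 and 5.59 in WT macrophages, 5.82, 6.05 and 6.13 in WT TAMs and 5.85, 5.92 and 5.70 in KO macrophages, and at 7.50, 7.37 and 7.55 in KO TAMs, above all other arrays. Its interaction was 1.51 ± 0.18 (limma adjusted p = 0.00746), from a difference of 0.14 in WT and a rise of 1.65 in KO cells, and held without any 1 array. Gpr141, an orphan G protein-coupled receptor, fell by 0.94 in WT cells and rose by 0.89 in KO cells. It was at 8.24, 8.35 and 8.24 in WT macrophages, 7.22, 7.65 and 7.15 in WT TAMs, 6.55, 6.59 and 6.59 in KO macrophages and 8.05, 6.97 and 7.38 in KO TAMs. Its interaction of 1.83 ± 0.30 (limma adjusted p = 0.04) was called in 3 of the fits that left out 1 array (adjusted p up to 0.135).

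The promoters of Ifitm3 and Fcgr1 are shown because both genes are textbook interferon targets and both rose further in KO cells. Each is a window of 300 bases around the annotated start (RefSeq, GRCm38.p6, minus strand for both, written 5′ to 3′ along the gene). Capitals mark, on either strand, GAAANNGAA in Ifitm3 (the core of the interferon-stimulated response element) and TTCNNNGAA in Fcgr1 (the interferon gamma activated site).
Ifitm3, chr7:141010695-141010994: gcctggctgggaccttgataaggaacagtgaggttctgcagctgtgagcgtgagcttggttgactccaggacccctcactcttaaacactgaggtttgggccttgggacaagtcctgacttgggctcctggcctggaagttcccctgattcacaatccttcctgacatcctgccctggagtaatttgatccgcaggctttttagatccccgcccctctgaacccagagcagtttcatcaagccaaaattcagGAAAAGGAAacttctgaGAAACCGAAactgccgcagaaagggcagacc
Fcgr1, chr3:96293920-96294219: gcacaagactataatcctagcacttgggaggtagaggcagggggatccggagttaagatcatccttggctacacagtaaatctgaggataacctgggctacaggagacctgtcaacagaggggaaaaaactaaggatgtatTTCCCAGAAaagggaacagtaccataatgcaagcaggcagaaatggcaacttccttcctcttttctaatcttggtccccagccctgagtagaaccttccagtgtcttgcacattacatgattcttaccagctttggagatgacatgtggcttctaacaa
Among the 43 called genes 33 had a promoter in the table. GAAANNGAA stood in 3 of the 33, Ifitm3, Gm5150 and Folr2, and in 8.09% of 16990 promoters. TTCNNNGAA stood in 2, Fcgr1 and Ifitm3 (8.05% of all), where the Ifitm3 match overlaps the later of its GAAANNGAA matches. CACGTG, the E-box, stood in 2, Cmklr1 and Pdxk (8.18% of all), and TGANTCA, the AP-1 site, in 2, Gpnmb and Ifitm3 (7.39% of all). GGANTTTCC, part of the NF-kB site, stood in 2, H2-M2 and Shisa3 (1.31% of all). GAGGAAGT for PU.1 and TGACGTCA for CREB were found in 0 of the 33, against 2.97% and 2.45% of all promoters. The motifs were chosen after the expression results were known, and the interferon and NF-kB letters were shortened by a base after longer forms had been searched. The longer interferon form matched Ifitm3 and Gm5150 and the longer NF-kB form matched no called promoter. A match describes letters in this window and is not a measured binding site.

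On the lower side, most genes rose with co-culture in WT cells and less, or not detectably, in KO cells. Bcl2, the founding inhibitor of apoptosis, was at 7.65, 7.58 and 7.48 in WT macrophages and 8.71, 8.89 and 9.12 in WT TAMs. In KO cells it was at 7.45, 7.46 and 7.48 in macrophages and 7.58, 7.80 and 7.71 in TAMs. The WT rise of 1.34 stood beside a KO difference of 0.23 that was not called, and the interaction was -1.11 ± 0.15 (limma adjusted p = 0.0122). Tgm2, the tissue transglutaminase that marks alternatively activated macrophages, rose from 7.68, 7.70 and 7.76 to 9.35, 9.76 and 9.28 in WT cells and from 7.80, 7.91 and 8.07 to 8.64, 8.37 and 8.5 in KO cells (interaction -1.17 ± 0.18, limma adjusted p = 0.0281). Slc6a8, the X-linked creatine transporter, rose from 9.39, 9.38 and 9.40 to 10.74, 11.01 and 10.79 in WT cells and was at 9.65, 9.79 and 9.79 in KO macrophages and 10.37, 10.14 and 9.83 in KO TAMs (interaction -1.08 ± 0.18, limma adjusted p = 0.0379). For these 3 genes every KO TAM array lay below every WT TAM array. Bcl2 lost its call without WT macrophage 2 or 3 or KO macrophage 1 or 3 (adjusted p up to 0.0552). Tgm2 kept its call in 4 and Slc6a8 in 3 of the 12 fits (up to 0.0976 and 0.131). A second, dimmer probe set for Bcl2 gave 0.25, at a mean level of 3.83 beside 7.91, and with the mean of the probe sets the adjusted p was 0.297.

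Eya1, a transcriptional coactivator with phosphatase activity, and Lmnb2, which encodes lamin B2 of the nuclear envelope, behaved like Bcl2. Eya1 was at 9.05, 8.93 and 9.02 in WT macrophages and 9.99, 9.62 and 9.97 in WT TAMs, and stayed between 8.82 and 9.08 on the 6 KO arrays (interaction -0.92 ± 0.15, limma adjusted p = 0.04). Lmnb2 rose by 0.64 in WT cells and differed by -0.17 in KO cells (interaction -0.81 ± 0.14, limma adjusted p = 0.0423). Sccpdh, a protein resembling saccharopine dehydrogenase, rose by 0.32 in WT cells and fell by 0.39 in KO cells (interaction -0.70 ± 0.12, limma adjusted p = 0.04). Each was called in 2 or 3 of the 12 fits that left out 1 array, with the largest adjusted p at 0.135 for Eya1, 0.147 for Lmnb2 and 0.135 for Sccpdh.

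Other genes of the lower side were already high in KO macrophages. Mr1, which presents microbial vitamin B metabolites to MAIT cells, was at 8.75, 8.80 and 8.88 in WT macrophages and 10.43, 10.42 and 10.31 in WT TAMs. It was at 10.16, 10.15 and 10.21 in KO macrophages and 10.85, 10.44 and 10.43 in KO TAMs, so that every KO macrophage array lay above every WT macrophage array. It rose by 1.58 in WT and by 0.40 in KO cells, with an interaction of -1.18 ± 0.15 (limma adjusted p = 0.00969). Vegfb, a vascular endothelial growth factor, was at 7.48, 7.70 and 7.45 in WT macrophages, 8.87, 8.5 and 8.76 in WT TAMs, 8.27, 8.24 and 8.24 in KO macrophages and 8.51, 8.63 and 8.38 in KO TAMs (interaction -0.91 ± 0.16, limma adjusted p = 0.0473). Fnip2, a partner of folliculin in nutrient signalling, Pdxk, the pyridoxal kinase, Id2, an inhibitor of basic helix-loop-helix factors, and Cd200r4, a receptor related to the CD200 receptor, had the same form. Their interactions were -0.87 ± 0.12, -0.81 ± 0.14, -0.70 ± 0.10 and -0.69 ± 0.11, with WT rises of 1.09, 0.94, 0.98 and 1.06. Ankrd28, a regulatory subunit of a protein phosphatase, was at 8.5, 8.65 and 8.65 in WT macrophages and 9.30, 9.27 and 9.33 in WT TAMs, against 9.39, 9.35 and 9.47 in KO macrophages and 8.98, 9.14 and 9.06 in KO TAMs. It rose by 0.70 in WT cells and fell by 0.35 in KO cells, with an interaction of -1.05 ± 0.11 (limma adjusted p = 0.00487). Mr1 and Ankrd28 were called without any 1 array, Fnip2 in 8 of the 12 fits, Id2 in 4, Cd200r4 in 3 and Vegfb and Pdxk in 2, with adjusted p up to 0.184 for Vegfb.

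A further group was higher in KO than WT macrophages and fell with co-culture in KO cells. Sema7a, a membrane-anchored semaphorin, was at 6.71, 6.90 and 6.77 in WT macrophages and 6.72, 6.74 and 6.85 in WT TAMs. In KO cells it went from 7.71, 7.68 and 7.71 to 5.69, 6.52 and 6.39, a difference of -1.5, so that the KO arrays lay above WT in macrophages and below in TAMs (interaction -1.47 ± 0.24, limma adjusted p = 0.0371). Ddit4, a stress-induced inhibitor of mTORC1, went from 6.93, 6.74 and 6.82 to 5.64, 5.82 and 5.79 in KO cells, and was at 5.67, 5.77 and 5.88 in WT macrophages and 5.90, 6.72 and 5.94 in WT TAMs (interaction -1.49 ± 0.25, limma adjusted p = 0.0414). St8sia6, a sialyltransferase that makes ligands for Siglecs, fell from 6.92, 6.79 and 6.68 to 4.74, 5.22 and 4.94 in KO cells and from 4.96, 5.08 and 5.26 to 4.70, 4.61 and 4.57 in WT cells (interaction -1.36 ± 0.18, limma adjusted p = 0.00969). The WT levels of St8sia6 lay below the median over all genes, 5.34, so differences among them may be background. Rapsn, the scaffold of acetylcholine receptors in muscle, fell by 0.91 in KO cells and differed by 0.43 in WT cells (interaction -1.35 ± 0.23, limma adjusted p = 0.045). The calls of Sema7a, Ddit4 and Rapsn held in 4, 3 and 3 of the 12 fits (adjusted p up to 0.132, 0.135 and 0.147), and that of St8sia6 in all 12.

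The same form was seen at 3 microRNA loci, which fall outside the rule for named genes and were chosen after their values were seen. Mature microRNAs bind target messages through the seed, bases 2 to 8, shown in capitals (RefSeq, GRCm38.p6), so that the sequences show which messages each arm could pair with. The array reads the locus and not a mature arm, so both arms are given for each.
miR-146a-5p, chr11:43374435-43374456, minus strand: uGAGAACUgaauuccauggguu
miR-146a-3p, chr11:43374399-43374420, minus strand: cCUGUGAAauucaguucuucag
miR-27a-3p, chr8:84208727-84208747, plus strand: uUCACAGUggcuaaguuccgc
miR-27a-5p, chr8:84208685-84208706, plus strand: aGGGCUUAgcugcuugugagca
miR-342-3p, chr12:108658680-108658702, plus strand: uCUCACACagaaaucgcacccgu
miR-342-5p, chr12:108658638-108658659, plus strand: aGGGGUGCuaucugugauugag
No pair of these arms shares a seed. Mir146, the miR-146a locus known from feedback on NF-kB signalling, fell from 6.02, 5.74 and 6.16 in KO macrophages to 3.23, 3.25 and 3.40 in KO TAMs, and was at 3.66, 3.89 and 3.51 in WT macrophages and 2.56, 3.35 and 2.95 in WT TAMs. All KO macrophage arrays lay above all others. The other 9 arrays lay below the 25th percentile of mean levels over all genes, 4.02, and near the level of Uty on WT arrays, so differences among them may be background and the size of the interaction, -1.95 ± 0.25 (limma adjusted p = 0.00969), rests partly on them. Mir27a rose from 6.52, 6.41 and 6.38 to 7.07, 7.04 and 6.99 in WT cells and fell from 7.48, 7.49 and 7.50 to 7.03, 6.95 and 6.58 in KO cells (interaction -1.23 ± 0.15, limma adjusted p = 0.00834). Mir342 fell from 8.0, 8.06 and 8.23 to 6.93, 6.44 and 6.72 in KO cells and was between 6.66 and 7.12 on the 6 WT arrays (interaction -1.06 ± 0.16, limma adjusted p = 0.0263). Mir146 and Mir27a were called without any 1 array and Mir342 in 3 of the 12 fits (adjusted p up to 0.113).

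How many genes could be called depended on the pair of arrays that stood apart. All 43 calls remained when WT TAM 2, KO TAM 1 or both were left out, and the number of calls rose to 247 (1.11%) without WT TAM 2, to 444 (2%) without KO TAM 1 and to 1496 (6.74%) without both, with 657 above 0 (2.96%) and 839 below (3.78%). Of those 1496 genes, 98.7% had an interaction of the same sign with all arrays. Every array of the smaller fit is also in the full fit, so this agreement was largely built in and does not test the calls. KO TAM 1 was nearer to the mean of WT TAM 1 and 3 than to the mean of KO TAM 2 and 3 for 903 of the 1496 genes (60.4%), and WT TAM 2 was nearer to the KO TAM mean for 625 (41.8%). Over the 2561 genes changed by co-culture in WT cells, the response of KO TAM 1 had a slope of 0.96 on the WT response, against 0.48 for KO TAM 2 and 0.40 for KO TAM 3. The genes were selected by that same WT response, which can lower all these slopes. The slopes therefore compare KO arrays with each other and do not measure the size of the KO response. Leaving out WT TAM 2 and KO TAM 1 was chosen with results of these data known, so the p-values of the smaller fits are too small. Of the 1496 genes, 25.2% had a narrower genotype gap in TAMs (44.2% of all genes), the opposite of the 74.4% among the 43. Leaving out any macrophage array lowered the number of calls, to between 14 (without KO macrophage 3) and 24 (without KO macrophage 2), and without WT TAM 1 or 3 there were 27 and 25. Altogether 14 of the 43 genes were called in all 12 fits that left out 1 array.

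**Figure D4:**
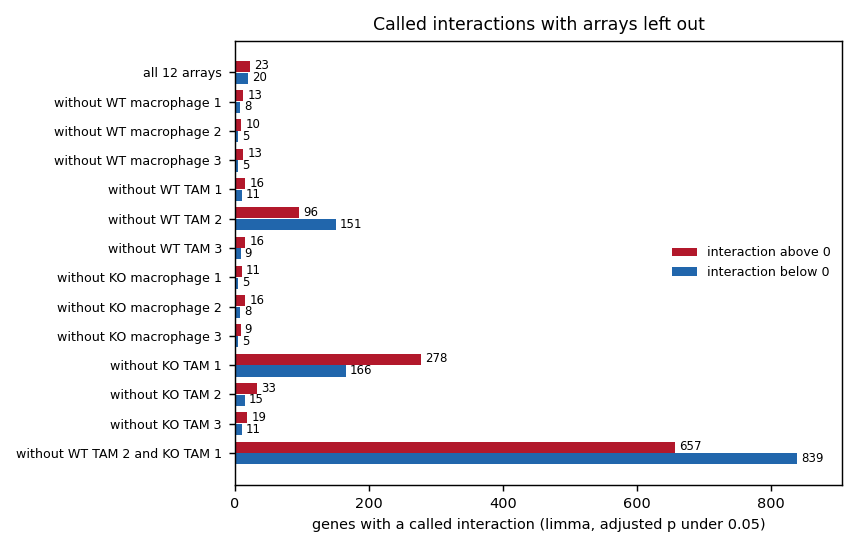
Bars give the number of genes with a called interaction above 0 (red) and below 0 (blue) in limma's test at an adjusted p under 0.05, with all 12 arrays, without each array in turn and without both WT TAM 2 and KO TAM 1. With all arrays there are 23 and 20, and without both there are 657 and 839.

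Gene lists show where the interaction leaned beyond the called genes. In all, 9 of 28 pathway lists held a called gene and 21 had a median interaction above 0, beside a median of -0.02 over all genes. The 31 measured genes of DNA replication and S phase were all below 0, with a median interaction of -0.60. None was called (0 of 31, 0.194% of all genes), while 18 had an unadjusted p under 0.05 (9.6% of all genes). Among them Chaf1b, a chaperone that loads histones behind the replication fork, had -0.78 ± 0.17 and Rrm2, which makes deoxynucleotides, had -1.15 ± 0.28 (limma adjusted p = 0.112 and 0.149). Rrm2 was at 7.78, 7.77 and 7.64 in WT macrophages, 7.86, 7.96 and 8.27 in WT TAMs, 6.41, 6.65 and 6.6 in KO macrophages and 5.62, 6.22 and 5.26 in KO TAMs. KO cells were therefore below WT in both cultures, and further below in TAMs. The mean of the list was at 7.81 on each WT macrophage array, at 8.14, 7.72 and 8.39 in WT TAMs, between 6.90 and 7.0 in KO macrophages and at 6.58, 6.81 and 6.61 in KO TAMs. Without WT TAM 2 there were 13 genes called lower (0.681% of all genes), without KO TAM 1 there were 0 (0.748%), and without both 19 (3.78%), among them Pcna, the sliding clamp of the replication fork, and Pola1, the polymerase that starts new strands, with interactions of -0.58 and -1.03.

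The 33 genes of mitosis had 32 below 0, a median of -0.63 and 0 called, with 4 at an unadjusted p under 0.05 (9.6% of all genes). Cdk1, the kinase that drives entry into mitosis, had -0.54 ± 0.22 and Bub1, a spindle checkpoint kinase, had -0.85 ± 0.36 (limma adjusted p = 0.456 and 0.488). The mean of this list was at 9.01, 8.10 and 9.19 in WT TAMs and at 7.16, 6.92 and 6.27 in KO TAMs, beside 8.44 to 8.48 in WT macrophages and 7.03 to 7.11 in KO macrophages. WT TAM 2 was the lowest WT array and KO TAM 3 the lowest KO array. Without WT TAM 2 and KO TAM 1, 26 of the 33 were called lower (3.78% of all genes), with Melk at -1.04 and Aurka at -1.03, both mitotic kinases. Without WT TAM 2 alone there were 4 (0.681% of all genes), and without KO TAM 1 alone 0 (0.748%).

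Interferon-stimulated genes leaned the other way. Of 31 type I interferon genes 30 were above 0, with a median interaction of 0.50 from a median co-culture difference of -0.08 in WT and 0.46 in KO cells. Only Ifitm3 was called (0.104% of all genes were called above 0), and the next smallest p belonged to Zbp1, a sensor of Z-form nucleic acid, at 1.09 ± 0.37 (limma adjusted p = 0.337). Mx1, an interferon-induced GTPase that blocks viruses, was at 6.47, 6.37 and 6.34 in WT macrophages, 5.23, 6.72 and 5.93 in WT TAMs, 6.55, 6.76 and 6.66 in KO macrophages and 5.86, 7.96 and 8.10 in KO TAMs. KO TAM 2 and 3 were thus above all other arrays, while KO TAM 1 was below every macrophage array. The mean of the list repeated this, at 8.84, 9.90 and 10.16 in KO TAMs against 8.57, 9.32 and 9.10 in WT TAMs and 9.01 to 9.17 in the macrophages of both genotypes. Without both arrays 24 of the 31 were called above 0 (2.96% of all genes), with Mx1 at 2.18 and Isg15, a ubiquitin-like modifier, at 1.63. There were 6 without KO TAM 1 alone (1.25% of all genes) and 1 without WT TAM 2 alone (0.433%).

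The 20 guanylate-binding and interferon gamma genes had 16 above 0, a median of 0.70 and 0 called, with 8 at an unadjusted p under 0.05 (9.6% of all genes). Cxcl9, a chemokine for T cells, had 1.32 ± 0.24 and Gbp7, an antimicrobial GTPase, had 0.72 ± 0.15 (limma adjusted p = 0.0608 and 0.0959). Without both arrays 9 were called above and 1 below 0 (2.96% and 3.78% of all genes). Without KO TAM 1 alone 5 were called above (1.25% of all genes). Antigen presentation showed medians of 0.34 for 19 MHC class I genes (18 above 0) and 0.32 for 16 MHC class II genes (11 above 0), with 0 called in either. These lists do not hold H2-M2 and Mr1, which were called. Psmb10, a subunit of the immunoproteasome, had 0.55 ± 0.16, H2-M3, a nonclassical class I gene, 0.53 ± 0.16, Ciita, the master activator of class II, 0.74 ± 0.16 and H2-Eb1, a class II chain, 1.34 ± 0.39. Without both arrays 4 class I and 5 class II genes were called above 0 (2.96% of all genes). The list mean of class I was at 9.18, 9.33 and 9.57 in KO TAMs and 9.03, 9.10 and 9.16 in WT TAMs, so that the TAM groups did not overlap.

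Fc gamma receptors and Siglecs, with 15 genes measured, had a median of 0.34, 11 above 0 and Fcgr1 called. Fcgr4, an activating IgG receptor, had 0.72 ± 0.13 (limma adjusted p = 0.0631). Nonclassical monocyte genes had a median of 0.35 over 17 genes, with Spn called and Dusp16, a MAP kinase phosphatase, at 0.51 ± 0.14. Macrophage identity genes had a median of 0.17 over 20 genes, with Fcgr1 called and Lyz2, the macrophage lysozyme, at 0.48 ± 0.11. Without both arrays 2.96% of all genes were called above and 3.78% below 0. The calls above and below 0 were then 6 and 1 for the Fc and Siglec list, 7 and 0 for nonclassical monocyte genes and 4 and 1 for macrophage identity. The 33 markers of tumour-associated macrophages held 2 called genes, Gpnmb and Folr2, and a median of 0.02 that was close to that of all genes. The 18 scavenger receptors had a median of 0.10, 0 called, Msr1, the scavenger receptor A, at 1.07 ± 0.25 and Olr1, a receptor for oxidised lipoprotein, at 0.41 ± 0.17 (limma adjusted p = 0.132 and 0.478).

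**Figure D5:**
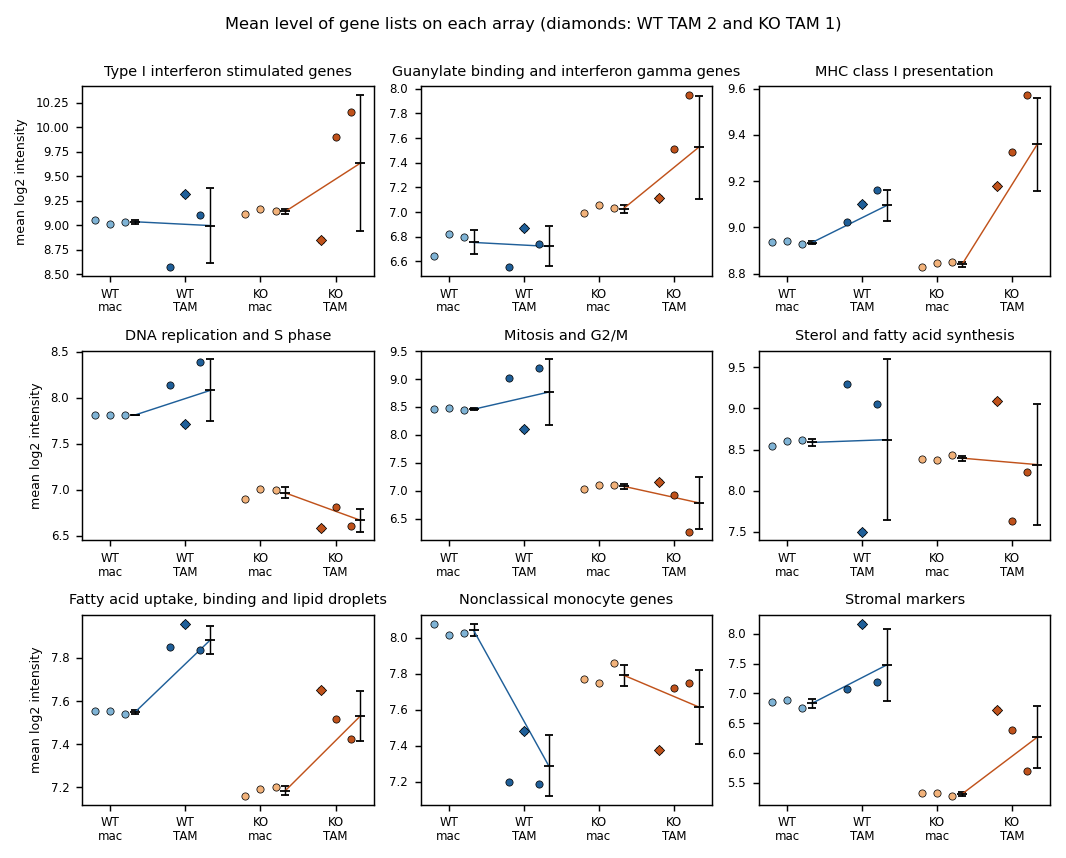
Mean log2 intensity of the measured members of 9 gene lists on each array, by group (mac stands for macrophage), with diamonds for WT TAM 2 and KO TAM 1, bars for the mean and SD of 3 arrays and lines joining the means of 1 genotype. Interferon lists are highest on KO TAM 2 and 3, replication and mitosis are lower on all KO arrays than on all WT arrays, and sterol synthesis varies most between TAM arrays of 1 genotype.

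Lipid genes, the closest to the known role of CD36, were not called. Of 27 genes of fatty acid uptake, binding and lipid droplets 0 were called (0.194% of all genes) and 11 were above 0, with a median of -0.01. Acsl5, which activates long-chain fatty acids, had 0.53 ± 0.23 and Lrp1, a lipoprotein receptor, had -0.42 ± 0.19 (limma adjusted p = 0.488 and 0.503). Fabp4, a fatty acid binding protein, was at 6.87, 6.67 and 6.70 in WT macrophages, 11.68, 9.79 and 10.68 in WT TAMs, 4.10, 4.73 and 5.29 in KO macrophages and 11.63, 8.09 and 7.29 in KO TAMs. Its interaction of 0.32 ± 1.22 (limma adjusted p = 0.964) has an error so wide that differences of several fold either way could not be detected, and without WT TAM 2 and KO TAM 1 it was -1.45 (limma adjusted p = 0.149). Fabp5, a second fatty acid binding protein, had 0.95 ± 0.50, Plin2, the coat protein of lipid droplets, 0.15 ± 0.34, Pparg, a nuclear receptor for lipids, -0.18 ± 0.21 and Abca1, the cholesterol exporter, 0.12 ± 0.37, none of them called. Without both arrays Fabp5 was at 0.16 and Plin2 at 0.50, also not called. The 24 genes of fatty acid oxidation had a median of 0.07 and 0 called, with Hadh at -0.44 ± 0.11 and Cpt1a, the gate of mitochondrial entry, at 0.64 ± 0.23 (limma adjusted p = 0.149 and 0.363). The 23 genes of PPAR and LXR receptors and targets had a median of 0.03 (-0.12 without KO TAM 1) and 0 called, with Abcg3, an ABC transporter, at -2.20 ± 0.46 and Pltp, which transfers phospholipids, at 0.66 ± 0.18 (limma adjusted p = 0.092 and 0.224). Without both arrays apart, 1 of 27 genes of the uptake list, 3 of 24 of the oxidation list and 6 of 23 of the PPAR and LXR list were called, beside 6.74% of all genes.

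Sterol and fatty acid synthesis had a median of -0.06 over 26 genes with all arrays, 0 called, and Srebf1, the transcription factor of the pathway, at -0.58 ± 0.20 and Elovl5, an elongase, at -0.33 ± 0.16. Its mean was at 9.30, 7.50 and 9.06 in WT TAMs and 9.10, 7.63 and 8.22 in KO TAMs, so that 1 array of each genotype, WT TAM 2 and KO TAM 2, was the lowest. Without WT TAM 2 and KO TAM 1, 21 of the 26 were called below 0 (3.78% of all genes) and the median was -1.03. Fasn, the fatty acid synthase, was then at -1.34 and Scd1, the stearoyl desaturase, at -1.24. Without WT TAM 2 alone there was 1 (0.681% of all genes) and without KO TAM 1 alone 0 (0.748%). The result for this pathway thus rests on which TAM arrays are kept. The mean over 12 stromal markers moved on the same array, at 8.17 on WT TAM 2 beside 7.07 and 7.19 on WT TAM 1 and 3, and its part in the result was not tested.

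The other metabolic and stress lists held 2 called genes, Ddit4 and Bcl2. Medians were -0.07 for 28 genes of glycolysis and hypoxia, with P4ha2, a collagen prolyl hydroxylase, at -1.11 ± 0.24 and Egln1, the oxygen sensor of the HIF pathway, at -0.57 ± 0.14. They were 0.07 for 27 genes of the TCA cycle and respiratory chain, with Acod1, which makes itaconate, at 1.78 ± 0.75 and Sdhb, a subunit of succinate dehydrogenase, at 0.27 ± 0.11. NRF2 targets had 0.16 over 23 genes, with Txn1, thioredoxin, at 0.62 ± 0.13 and Gclc, of glutathione synthesis, at -0.35 ± 0.16. Without both arrays 10 of the 23 were called above 0 (2.96% of all genes). Iron handling had 0.04 over 20 genes (-0.06 without both arrays), with Flvcr1, a heme exporter, at -0.38 ± 0.14 and Blvrb, a biliverdin reductase, at 0.67 ± 0.25. The unfolded protein and integrated stress response had 0.09 over 29 genes, with Ppp1r15a, which reverses the stress block on translation, at -0.38 ± 0.15. The p53 and apoptosis list had 0.06 over 22 genes, with Bcl2 called and its relative Bcl2l1 at -0.77 ± 0.20 (limma adjusted p = 0.197).

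Lists of secreted, matrix, osteoclast, Toll-like receptor and lysosome genes held 2 called genes, Vegfb and Dcstamp. Inflammatory mediators had a median of 0.20 over 30 genes with 0 called, with Saa3, an acute phase protein, at 1.84 ± 0.37 and Nfkbiz, a nuclear regulator of NF-kB, at 0.85 ± 0.27 (limma adjusted p = 0.0845 and 0.301). Chemokines had -0.11 over 25 genes (0.20 without WT TAM 2) and 0 called, with Cxcl9 above and Ccl2, the main chemokine for monocytes, at -1.28 ± 0.26 (limma adjusted p = 0.0845). Without both arrays they split into 6 called above and 6 below 0 (2.96% and 3.78% of all genes). Matrix, protease and angiogenic genes had 0.19 over 30 genes (-0.13 without both arrays and -0.03 without KO TAM 1 alone), with Vegfb called and Plau, the urokinase, at -0.95 ± 0.19 (limma adjusted p = 0.0845). Osteoclast genes had 0.20 over 21 genes, with Dcstamp called and Mmp9, a gelatinase, at 3.58 ± 0.81 (limma adjusted p = 0.124). Complement had 0.15 over 20 genes and 0 called, with C5ar2, a C5a receptor, at -0.30 ± 0.13 and C4b, a classical pathway component, at 0.91 ± 0.43. Toll-like receptors and adaptors had 0.27 over 23 genes and 0 called, with Tlr12 at -0.58 ± 0.14 and Unc93b1, which carries endosomal Toll-like receptors, at 0.47 ± 0.12. Lysosome and phagocytosis genes had -0.10 over 31 genes and 0 called, with Neu1, a lysosomal sialidase, at -0.57 ± 0.12 and Mcoln1, a lysosomal cation channel, at -0.39 ± 0.10 (limma adjusted p = 0.0887 and 0.201).

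The remaining macrophage genes looked at in every comparison were not called with all arrays. Cd274, the checkpoint ligand PD-L1, came nearest, at 10.85, 10.88 and 10.87 in WT macrophages, 10.39, 10.55 and 10.10 in WT TAMs, 10.62, 10.73 and 10.69 in KO macrophages and 11.07, 10.90 and 11.54 in KO TAMs (interaction 1.0 ± 0.21, limma adjusted p = 0.0979). All KO TAM arrays lay above all WT TAM arrays. Vegfa, the main angiogenic factor, had 1.01 ± 0.56 and Il1b, an inflammatory cytokine, 1.0 ± 0.48, while Mrc1, the mannose receptor, had -0.39 ± 0.38, Arg1, arginase, -0.29 ± 0.39, Nos2, the inducible nitric oxide synthase, -0.24 ± 0.22, Tnf -0.20 ± 0.70 and Il6 0.06 ± 0.65. Adgre1 had 0.32 ± 0.15 and Cd68 0.02 ± 0.12. Leaving out both WT TAM 2 and KO TAM 1, 5 of these genes were called, beside 6.74% of all genes. Vegfa was at 1.74 (limma adjusted p = 0.00015), Cd274 at 1.15 (0.0166), Il6 at 1.04 (0.0116), Adgre1 at 0.46 (0.0334) and Mrc1 at -0.94 (0.0331). On the arrays kept there, Il6 was at 4.12 and 3.97 in WT TAMs, 4.91 and 5.08 in KO TAMs and 4.71 to 5.17 in macrophages. These levels lay below the median over all genes, 5.34, so the Il6 differences may be background. In the same fit Arg1 was at 0.12 and Tnf at 0.30, on the other side of 0 than with all arrays, and Il1b was at 0.66, none of them called.

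Markers of other cell types were not called (0 of the 7 lists held a called gene, beside 0.194% of all genes called). Medians were 0.17 for 17 myeloma, plasma and B cell markers, with Derl3 at 0.94 ± 0.22 and Prdm1 at 1.01 ± 0.36, and 0.12 for 12 stromal markers, with Dcn at 2.01 ± 0.44 and Sparc at 1.39 ± 0.66. They were -0.13 for 7 endothelial markers (Kdr -1.29 ± 0.49, Pecam1 0.99 ± 0.44), -0.01 for 9 T and NK cell markers (Nkg7 0.31 ± 0.15, Cd3e 0.22 ± 0.15) and -0.05 for 9 neutrophil markers (Ngp -0.49 ± 0.24, Camp 0.20 ± 0.10). For 5 mast cell markers the median was -0.01 (Kit 0.19 ± 0.13, Mcpt4 0.04 ± 0.18), and for 4 dendritic cell markers 0.03 (Ccr7 0.19 ± 0.16, Xcr1 -0.17 ± 0.16). The stromal mean was the 1 that differed widely between groups, with 6.75 to 6.88 on WT and 5.28 to 5.34 on KO macrophage arrays, and 7.07 to 8.17 on WT and 5.70 to 6.71 on KO TAM arrays. Its part in the interactions above was not tested. In bulk RNA of this kind, fewer cells of a type and less RNA per cell cannot be told apart.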

How the data were processed

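Labelled RNA of 12 samples was measured on whole-transcript arrays, 3 in each of 4 groups taken from the sample titles. The authors deposited 1 table of intensity values per probe set, made with RMA per the submitters' processing notes, which also name limma. Tool versions and the genome build were not given in the sources used here. RMA includes quantile normalization, which hides shifts common to most genes. The log2 was taken with no offset, and the number of arrays limits the precision. Probe sets with 1 gene symbol were kept, and for each gene the one with the highest mean, without a filter on level, which left 22180 genes. One limma 3.58.1 model (R 4.3.3; lmFit and eBayes) with 4 group means and no covariates gave every contrast with 8 residual degrees of freedom and 1 common spread per gene, although TAM arrays varied more than macrophage arrays. Calls required an adjusted p (Benjamini-Hochberg, all genes) under 0.05. The procedure was tested on simulated data with 1 common spread per gene and no arrays standing apart. That test therefore does not cover the wider spread of the TAM arrays.

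The question, the arrays left out and the gene lists, written from textbook knowledge, were chosen with earlier results of these data known. The 35 lists had 739 distinct members, 677 measured here. Genes were named by a rule: the 14 largest called interactions per direction (predicted, small RNA, receptor segment and olfactory genes left out), the 4 largest of each response pattern, up to 4 called members of each list or, with fewer than 2, the 2 with the smallest p, and a fixed set of macrophage genes, of which Spp1 was not analysed here. Other called genes were named after their values were seen. Levels are not compared between genes. Alternatives were another normalization, median centring, an offset, a filter on dim genes, the mean of probe sets, array weights, a spread of its own for each culture, another prior, another threshold, the replicate number as a block and leaving out arrays. Of 18 pairs of same-numbered arrays, 2 had a correlation over 0.1, both between TAMs. They were WT TAM 1 with KO TAM 1 (0.27) and WT TAM 2 with KO TAM 2 (0.25). No label pairs the numbers, so they were not taken as pairs in the main fit. Whether these TAM arrays share a culture was not tested. Promoter and microRNA sequences came from RefSeq tables, with 33 of 43 called genes matched for promoters.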

Additional observations from a re-analysis of the deposited data

Results flagged for a closer look

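Each of the 43 called interactions is a co-culture difference that differs between the genotypes by limma's test of the difference itself, and each is given here with the reach of its call.

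The interactions called in all 12 fits that left out 1 array were 2.83 for Gm5150, 2.72 for H2-M2, 2.28 for Shisa3, 2.08 for Uchl1, 1.99 for Clec4a4, 1.51 for Cmklr1, 1.16 for Fcgr1, 1.07 for Clec4a3 and 1.05 for Tmem178 above 0. Below 0 they were -1.05 for Ankrd28, -1.18 for Mr1, -1.23 for Mir27a, -1.36 for St8sia6 and -1.95 for Mir146. For Uchl1 a second probe set gave -0.10.

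For the others, the largest limma adjusted p over the 12 fits and the array left out there stand in brackets. Called in 10 of the 12 fits were Gpnmb at 1.03 (0.0552 without WT macrophage 2) and Gpd2 at 0.92 (0.0557 without WT macrophage 2). Called in 8 were Spn at 1.61 (0.0558 without KO macrophage 1), Dcstamp at 1.28 (0.0558 without KO macrophage 1), Fnip2 at -0.87 (0.0563 without WT macrophage 2) and Bcl2 at -1.11 (0.0552 without WT macrophage 2). Called in 7 was Folr2 at 1.13 (0.0843 without WT macrophage 3). Called in 4 were Gfra2 at 1.34 (0.147 without WT macrophage 3), Slc9b2 at 1.29 (0.135 without WT macrophage 2), Aldh6a1 at 0.90 (0.0974 without WT macrophage 2), Id2 at -0.70 (0.0878 without WT macrophage 3), Tgm2 at -1.17 (0.0976 without WT macrophage 2) and Sema7a at -1.47 (0.132 without WT macrophage 3). Called in 3 were Gpr141 at 1.83 (0.135 without WT macrophage 2), Spaca6 at 1.20 (0.17 without WT macrophage 3), Rps6kc1 at 0.77 (0.122 without WT macrophage 3), Cd200r4 at -0.69 (0.118 without WT macrophage 3), Sccpdh at -0.70 (0.135 without WT macrophage 2), Mir342 at -1.06 (0.113 without WT macrophage 3), Slc6a8 at -1.08 (0.131 without WT macrophage 3), Rapsn at -1.35 (0.147 without WT macrophage 2) and Ddit4 at -1.49 (0.135 without WT macrophage 2). Called in 2 were Ifitm3 at 1.05 (0.17 without WT macrophage 3), Peli1 at 0.80 (0.131 without WT macrophage 3), Hivep2 at 0.71 (0.135 without WT macrophage 3), Pdxk at -0.81 (0.18 without WT macrophage 3), Lmnb2 at -0.81 (0.147 without WT macrophage 2), Vegfb at -0.91 (0.184 without WT macrophage 3) and Eya1 at -0.92 (0.135 without WT macrophage 2). A second probe set gave 0.25 for Bcl2 and -0.11 for Aldh6a1. With the mean of the probe sets neither was called (limma adjusted p = 0.297 and 0.538).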

How the results depend on the processing

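The direction of every called gene held in all 22 alternatives tried for each, with 698 of 946 values still called and 248 no longer called. Read alone, the second probe sets of Uchl1, Bcl2 and Aldh6a1 had the opposite sign. Bcl2 and Aldh6a1 were not called with the mean of the probe sets. The number of calls did not hold. From 43 (23 above and 20 below 0) it went to 105 (43 and 62) with an offset of 16 before the log2, 91 (45 and 46) without dim genes, 761 (383 and 378) with array weights, 99 (49 and 50) with a trended and robust prior, 1496 (657 and 839) without WT TAM 2 and KO TAM 1, and 120 at an adjusted p under 0.1. The 43 genes kept their calls under the offset, the filter, the weights, the other prior and the smaller set of arrays. With the replicate number as a block 26 genes were called, 10 below 0, of which 25 were among the 43. Leaving out 1 array gave between 14 and 444 calls, with 9 to 278 above and 5 to 166 below 0, and the cause was not tested. Co-culture changed 3976 genes in WT and 2705 in KO cells with array weights, and 4049 in WT cells without both arrays, beside 1475 to 3393 and 611 to 1939 with 1 array left out. The share of called genes with a narrower gap in TAMs was 35.5% with array weights and 25.2% without both arrays, and 28.8% to 83.3% with 1 array left out, so its direction is not settled. Pathway lists with a median above 0 numbered 17 to 24 with 1 array left out, and the Cd36 difference stayed between -3.42 and -3.34 in macrophages and between -3.78 and -3.17 in TAMs. The number of arrays and the spread among TAM arrays limit the size that can be called, which was at least 0.69 with all arrays.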

Other observations

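Without WT TAM 2 and KO TAM 1, Itgal, Siglece, Cd300e, Marco, Slc13a3 and Fcrl5 were among the genes with the largest interactions above 0, and were low on WT TAM 1 and 3 and high on KO TAM 2 and 3. Others of similar size had another form, such as Mmp9, a secreted protease (4.56 ± 0.29), which was between 4.93 and 5.87 on the 6 KO arrays. The genes named were chosen after their values were seen, the adjusted p of the smaller fit is too small, and none was called with all arrays. Itgal, the integrin chain of LFA-1, was at 11.33, 11.25 and 11.23 in WT macrophages, 6.69, 8.25 and 6.84 in WT TAMs, 11.34, 11.44 and 11.41 in KO macrophages and 6.71, 10.77 and 10.87 in KO TAMs. KO TAM 1 was thus beside the WT TAM arrays and far from KO TAM 2 and 3. The interaction of Itgal was 3.93 ± 0.11 without both arrays and 2.07 with all. Siglece, an inhibitory Siglec, was at 5.58, 8.10 and 6.61 in WT TAMs and 5.61, 10.08 and 10.28 in KO TAMs, with macrophage values between 10.46 and 10.81 in both genotypes. Cd300e, an activating myeloid receptor, was at 5.88, 7.48 and 6.24 in WT TAMs and 5.46, 9.18 and 9.64 in KO TAMs. Marco, a scavenger receptor for bacteria, was at 8.2, 11.36 and 9.14 in WT TAMs and 8.70, 11.93 and 11.97 in KO TAMs. Slc13a3, a dicarboxylate transporter, and Fcrl5, a receptor for IgG, had 4.82 ± 0.22 and 4.54 ± 0.23 without both arrays and 2.01 and 2.24 with all.

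Below 0, the same fit put Fads2, a fatty acid desaturase, at -2.79 ± 0.45, Ctnnd2, a catenin, at -2.34 ± 0.22, Npy, a neuropeptide, at -2.25 ± 0.24 and Htr2b, a serotonin receptor, at -2.22 ± 0.28. Npy was at 9.31, 8.82 and 9.75 in WT TAMs and 7.48, 6.24 and 5.97 in KO TAMs. Whether the macrophages of KO TAM 1 responded more, or this array differed in another way, was not tested.

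Between an adjusted p of 0.05 and 0.1 with all arrays lay 77 further genes. Among them, chosen after their values were seen, Clec7a, the beta-glucan receptor dectin-1, had an interaction of 1.71 ± 0.30 (limma adjusted p = 0.0554), Siglec1, the sialic acid receptor CD169, had 1.80 ± 0.35 (limma adjusted p = 0.0747) and Adgre4, an adhesion receptor of monocytes, had 2.62 ± 0.48 (limma adjusted p = 0.0608). Clec4a2, a further gene of the Clec4a cluster, had 0.98 ± 0.19 (limma adjusted p = 0.0788), with a WT difference of -1.39 and a KO difference of -0.41.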
